A study of Mus musculus with 14 samples.

Results

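The genes described here are 39 enzymes, carriers and regulators of glycolysis, the pentose phosphate pathway and the tricarboxylic acid (TCA) cycle, out of 36335 named entries in the count tables. They were chosen by function, as a list of symbols, and all 39 were found. The samples were 14 RNA libraries of the mouse embryonic stem cell line E14, 8 from Mettl3-KO cells and 6 from WT cells. Mettl3 writes N6-methyladenosine (m6A), a mark on mRNA known to shorten transcript lifetimes. Both genotypes had been held for 2 weeks on gelatin in serum and LIF medium with 200 nM INK128, which inhibits the mTOR kinase and slows the cells into a paused state, so no library came from unpaused cells. They then received 100 µM S4U, a thiolated uridine that is built into new RNA, for 12 h, with an exchange every 3 h, and were collected 0, 1, 3 and 8 h after its removal (the chase). Mettl3-KO had 2 libraries at each time. WT had 2 at 1 h and at 8 h, and a single one at 0 h and at 3 h. The labels name neither the number of knockout clones nor separate cultures behind the replicates. The p-values therefore reflect the spread among these 14 libraries, which may be technical. Effects of the loss of Mettl3 and other differences between the lines cannot be told apart.

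Glycolysis splits glucose into pyruvate and yields ATP without oxygen, and lactate dehydrogenase turns pyruvate into lactate, which leaves the cell through monocarboxylate carriers. The pentose phosphate pathway branches off at glucose 6-phosphate and yields NADPH and ribose for nucleotides. Pyruvate dehydrogenase feeds the TCA cycle, the source of electrons for respiration and of carbon for biosynthesis. Mouse embryonic stem cells use both glycolysis and respiration, and mTOR signalling is known to promote the expression of glycolytic and pentose phosphate genes.

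Total counts ran from 11136381 to 26654217 in the 7 deep Mettl3-KO libraries, and in the 5 deep WT libraries from 6108102 to 18086911. Mettl3-KO 3 h replicate 2 had 602297 and WT 1 h replicate 2 had 49154, so that 1 count in the last equals 21.4 CPM, the count scaled to a common library size. All 14 libraries entered the tests. Where the calls of members differ over the 12 deep libraries, those results are given too. Mettl3 itself lay between 1.23 and 2.42 CPM in the deep Mettl3-KO libraries, against 23.8 to 78.1 CPM in the deep WT libraries. The 39 genes made up between 0.304% and 0.803% of the counts of a library. Stem cell markers (8 genes, all detected) summed to between 3610 and 5241 CPM in the deep Mettl3-KO libraries and 4290 to 5808 CPM in the deep WT libraries. The summed endoderm markers lay between 11.7 and 19.8 CPM in Mettl3-KO and 27.9 and 35.9 CPM in WT, and the neural markers, Tubb3 among them, between 114 and 172 CPM in Mettl3-KO and 57.4 and 83.8 CPM in WT. Mesoderm, trophoblast and fibroblast markers summed to at most 19.6 CPM in any deep library, with Elf5 and Postn at 0 in both genotypes and Lum at 0 in WT. The part of these marker levels in the results below was not tested, and in these bulk samples fewer cells of a type and less RNA per cell cannot be told apart.

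Total RNA of Ldha and Ldhb, which encode both main subunits of lactate dehydrogenase, and of the monocarboxylate carriers Slc16a1 and Slc16a3 was higher in Mettl3-KO cells, while the glucose carriers and most TCA enzymes did not pass the test over 14 libraries. In the transport group 2 of 4 members were higher and 0 lower, as in the group of lactate dehydrogenase and pyruvate entry. Of the 38 members with enough counts, 7 were higher in Mettl3-KO than in WT and 0 lower (edgeR quasi-likelihood test, adjusted p under 0.05). Over all 14641 genes tested, 12.1% were higher and 9.99% lower, so 7 of 38 was not far above the background for higher genes. DESeq2 called 13 members higher and 4 lower, where it called 16.8% of all genes higher and 16.1% lower. The 7 were Ldhb, Slc16a3, Slc16a1, Pfkp, Pfkfb3, Ldha and Ogdh. The median log2 change was 0.14 over the 38 members and 0.05 over all genes tested, with 21 members above 0 and 17 below.

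The count depended on the libraries. Over the 12 deep libraries 14 members were higher and 8 lower, where 21.9% of all genes were higher and 19.3% lower. The members added on the higher side were Aldoc, Tpi1, Pgam1, Eno1, Pdk1, Pgd and Taldo1, and those on the lower side Slc2a1, Slc2a3, Hk1, Aldoa, Gapdh, Tkt, Idh1 and Pdha1. Leaving out Mettl3-KO 3 h replicate 2 alone gave 14 higher and 5 lower, where 19.2% of all genes were higher and 17% lower. Leaving out WT 1 h replicate 2 alone gave 3 lower, where 12.6% of all genes were. Fewer were higher, 3 or 4, when WT 0 h replicate 1, either WT 8 h library or either Mettl3-KO 8 h library was left out, where between 8.37% and 9.85% of all genes were higher. Without WT 8 h replicate 1 there was 1 lower member, where 8.15% of all genes were lower, and without Mettl3-KO 0 h replicate 2 there were 2, where 8.99% were. The CPM values of the 7 deep Mettl3-KO and 5 deep WT libraries did not overlap for 8 members that were higher (Pfkp, Tpi1, Eno1, Ldha, Ldhb, Slc16a1, Slc16a3 and Ogdh) and 1 that was lower (Pdha1). Over all genes tested, 12.3% were higher and 10.9% lower in this sense.

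**Figure D1:**
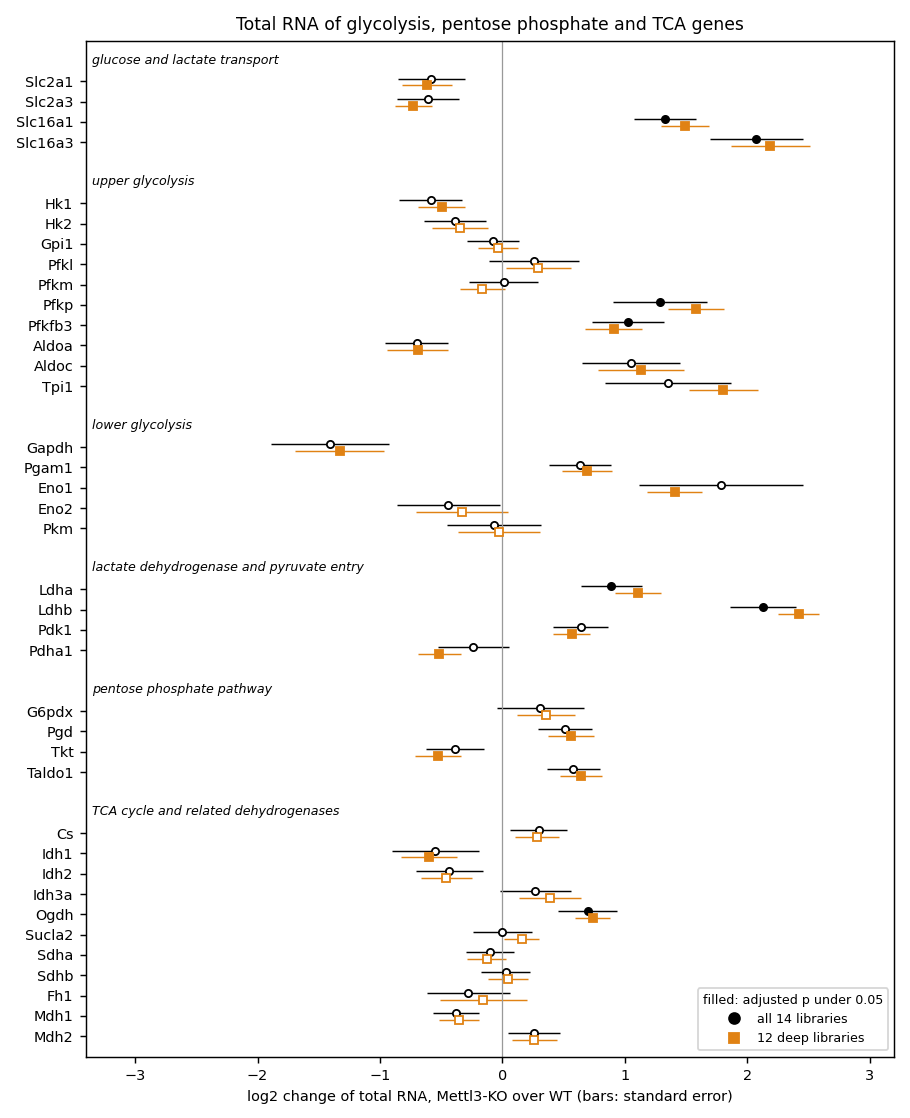
The log2 change of total RNA (x axis, Mettl3-KO over WT, with its standard error) for the 38 members tested, by role. Circles are all 14 libraries and squares the 12 deep ones, filled where the adjusted p was under 0.05; Ldhb (2.13) and Slc16a3 (2.07) lie farthest to the right among the filled circles.

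Ldhb had the largest log2 change and the smallest adjusted p of the 38 members in total RNA. Ldhb (chromosome 6, 142490249 to 142507957, GRCm38.p6) encodes the subunit that predominates in heart. It lay between 404 and 592 CPM (median 451) in the 7 deep Mettl3-KO libraries, against 91.1, 81.5, 76.2, 82.2 and 105 CPM in the deep WT libraries (0 h, 1 h replicate 1, 3 h, 8 h replicate 1 and 8 h replicate 2, the order used for all WT values below). Each deep Mettl3-KO library was thus far above each deep WT library. The means were 467 CPM ± 65.5 (SD, n = 7) in Mettl3-KO and 87.2 CPM ± 11.3 (SD, n = 5) in WT. Over 14 libraries its log2 change came to 2.13 (SE 0.27, edgeR adjusted p = 0.00011), against 2.42 (SE 0.17, edgeR adjusted p = 5.8e-09) over the deep ones, and the call held with any 1 library left out. The shallow WT library held 13 Ldhb counts and the shallow Mettl3-KO library 88.

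Ldha (chromosome 7, 46842274 to 46855627) encodes the subunit that predominates in skeletal muscle and in glycolytic cells. Its level was between 266 and 575 CPM (median 284) in the deep Mettl3-KO libraries and 182, 135, 175, 121 and 201 CPM in the deep WT libraries. The groups did not overlap, and the top values, 575 and 431 CPM, were those of both Mettl3-KO 8 h libraries. It changed by 0.89 on the log2 scale (SE 0.25, edgeR adjusted p = 0.020). It missed the threshold without WT 8 h replicate 1, WT 8 h replicate 2 or Mettl3-KO 8 h replicate 1 (edgeR adjusted p up to 0.0563), where it was at least 0.71. As a share of the Ldha and Ldhb counts together, Ldhb held between 44.0% and 67.6% (median 61.7%) in the deep Mettl3-KO libraries and between 30.3% and 40.4% (median 34.3%) in the deep WT libraries. This share is a ratio of counts, not corrected for how well each 3′ end is captured, and RefSeq names 3 near-identical copies of Ldha and 1 of Ldhb, between which reads could be split.

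Both monocarboxylate carriers were also called higher. Slc16a1 (MCT1; chromosome 3, 104638664 to 104658462) moves lactate and pyruvate with a proton across the plasma membrane. Between 70.2 and 122 CPM (median 105) were measured in the deep Mettl3-KO libraries, against 44.0, 26.6, 43.8, 39.2 and 28.2 CPM in the deep WT libraries. These groups did not overlap, with a log2 change of 1.32 (SE 0.25, edgeR adjusted p = 0.0020). Slc16a3 (MCT4; chromosome 11, 120948484 to 120959000) is the low-affinity carrier known for lactate export from glycolytic cells. It lay between 11.01 and 54.6 CPM (median 18.2) in the deep Mettl3-KO libraries, against 3.50, 8.73, 5.66, 4.31 and 6.62 CPM in the deep WT libraries, where it rested on 42 to 65 counts. On the log2 scale it changed by 2.07 (SE 0.38, edgeR adjusted p = 0.0016), and both carriers were called with any 1 library left out. Both Mettl3-KO 8 h libraries, at 53.1 and 54.6 CPM, stood above the other deep Mettl3-KO libraries for Slc16a3, none of which exceeded 21.9 CPM.

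**Figure D2:**
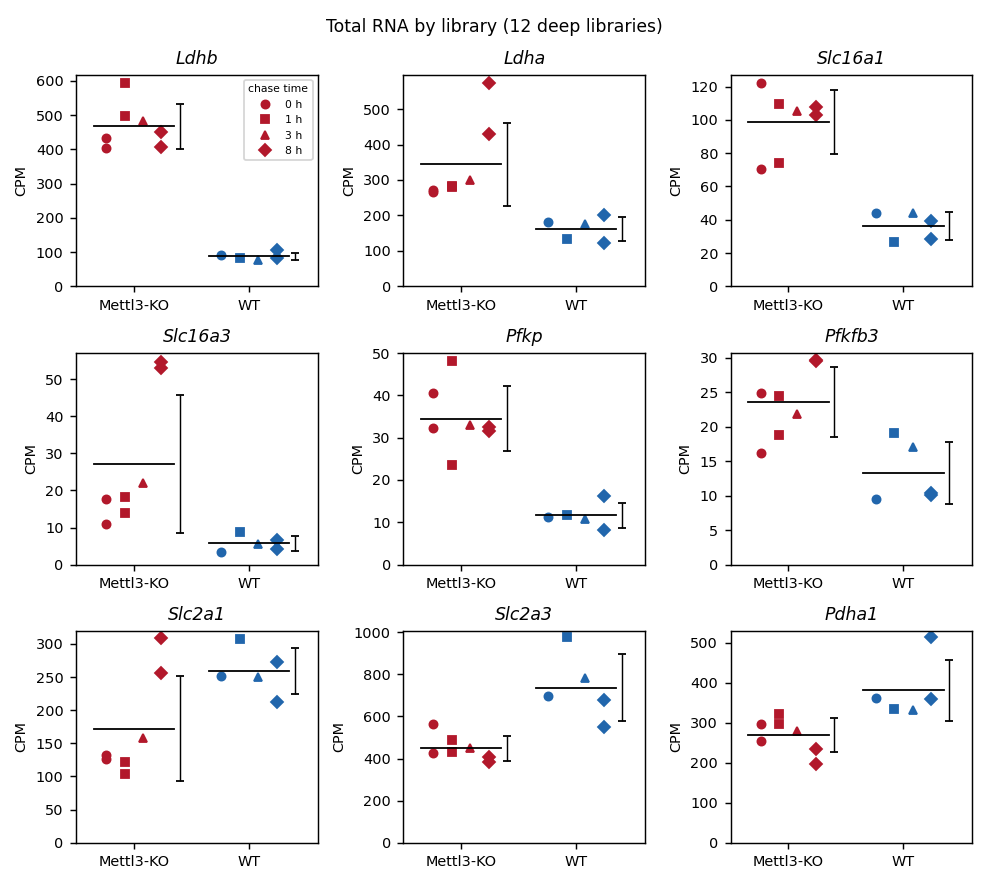
Total RNA in CPM (y axis) in each of the 12 deep libraries for 9 members, with Mettl3-KO left of WT, symbols by chase time, and the mean and SD of each group as lines. The groups are apart for Ldhb, Ldha, Slc16a1, Slc16a3, Pfkp and, with Mettl3-KO lower, Pdha1, and the Mettl3-KO 8 h libraries are the highest of their genotype for Ldha, Slc16a3, Pfkfb3 and Slc2a1.

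The promoters of Ldhb, Ldha, Slc16a1 and Slc16a3 are shown from 250 bases before to 50 after the annotated start (RefSeq, GRCm38.p6). These 4 genes are among the 7 members called in total RNA. Those of Pfkp, Pfkfb3 and Ogdh, called as well, are not printed. Letters searched for were CACGTG, the E-box that MYC family and related factors bind, and ACGTG, the core of the HIF site, on both strands. CACGTG always contains ACGTG. Capitals mark these matches; for Ldha the more upstream of the 2 starts in the promoter table is shown.
Ldhb, chr6:142507908-142508207, minus strand: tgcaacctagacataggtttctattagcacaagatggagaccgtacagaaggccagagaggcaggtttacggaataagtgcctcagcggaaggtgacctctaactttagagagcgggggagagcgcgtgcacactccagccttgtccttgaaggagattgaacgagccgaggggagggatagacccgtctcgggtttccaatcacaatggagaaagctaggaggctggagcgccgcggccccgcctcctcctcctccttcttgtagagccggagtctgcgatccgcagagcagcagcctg
Ldha, chr7:46845554-46845853, plus strand: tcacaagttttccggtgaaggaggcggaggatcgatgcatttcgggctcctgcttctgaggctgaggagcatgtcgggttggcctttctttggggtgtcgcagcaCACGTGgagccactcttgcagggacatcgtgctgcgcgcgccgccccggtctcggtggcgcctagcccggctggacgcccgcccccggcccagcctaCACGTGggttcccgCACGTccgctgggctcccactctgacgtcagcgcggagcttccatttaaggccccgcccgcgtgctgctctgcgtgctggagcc
Slc16a1, chr3:104638414-104638713, plus strand: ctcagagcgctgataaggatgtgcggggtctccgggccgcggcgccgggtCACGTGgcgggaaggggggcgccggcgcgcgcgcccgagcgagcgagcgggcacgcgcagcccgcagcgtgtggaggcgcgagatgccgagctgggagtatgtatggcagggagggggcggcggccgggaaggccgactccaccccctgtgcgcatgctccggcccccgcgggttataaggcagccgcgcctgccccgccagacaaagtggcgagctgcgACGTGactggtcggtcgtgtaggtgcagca
Slc16a3, chr11:120948817-120949116, plus strand: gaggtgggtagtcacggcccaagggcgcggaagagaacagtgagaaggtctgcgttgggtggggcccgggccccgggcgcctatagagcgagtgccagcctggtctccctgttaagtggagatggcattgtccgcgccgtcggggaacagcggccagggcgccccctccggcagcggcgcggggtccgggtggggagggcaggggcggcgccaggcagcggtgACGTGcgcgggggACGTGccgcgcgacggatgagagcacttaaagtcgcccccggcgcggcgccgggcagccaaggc
The Ldha window held 2 matches of CACGTG and 1 further ACGTG, that of Slc16a1 held 1 of each, and that of Slc16a3 held 2 of ACGTG and none of CACGTG. These letters were not in the window of Ldhb, which had the largest estimate of the 4. Promoters were given for 37 of the 39 members. At least 1 of their starts held ACGTG for 18 of these 37 genes and CACGTG for 5, beside 21.8% and 8.1% of all 27025 genes with a promoter.

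The glucose carriers did not pass the test over 14 libraries. Slc2a1 (GLUT1), the carrier of basal glucose uptake, lay between 103 and 309 CPM (median 133) in the deep Mettl3-KO libraries and at 252, 307, 250, 212 and 272 CPM in the deep WT libraries. Its log2 change was -0.58 (SE 0.27, edgeR adjusted p = 0.15) over 14 libraries and -0.62 (SE 0.21, edgeR adjusted p = 0.024) over the deep ones. With 1 library left out it lay between -0.72 and -0.26, the last without WT 1 h replicate 1 (edgeR adjusted p = 0.56), and it passed (-0.67, edgeR adjusted p = 0.049) without WT 1 h replicate 2. The 5 deep Mettl3-KO libraries of 0 to 3 h, at no more than 158 CPM, lay below every deep WT library, and of the Mettl3-KO 8 h libraries replicate 2, at 257 CPM, lay within the WT range and replicate 1, at 309 CPM, just above it. Slc2a3 (GLUT3), a high-affinity glucose carrier, was at 386 to 563 CPM (median 431) in the deep Mettl3-KO libraries and at 699, 977, 782, 549 and 678 CPM in the deep WT libraries. The groups overlapped by 1 library each, Mettl3-KO 0 h replicate 2 and WT 8 h replicate 1. The estimate was -0.61 on the log2 scale (SE 0.25, edgeR adjusted p = 0.10) over 14 libraries and -0.73 (SE 0.15, edgeR adjusted p = 0.00089) over the deep ones.

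In upper glycolysis, down to triose phosphate, 2 of 10 members were higher and 0 lower, beside 12.1% and 9.99% of all genes. Pfkp, the platelet isozyme of phosphofructokinase, which commits glucose to glycolysis, lay between 23.4 and 48.1 CPM (median 32.5) in the deep Mettl3-KO libraries and at 11.2, 11.8, 10.7, 8.15 and 16.2 CPM in the deep WT libraries. With no overlap between the groups, its change was 1.29 on the log2 scale (SE 0.38, edgeR adjusted p = 0.027). The call was lost in 8 of the 14 fits that left out 1 library, where the adjusted p reached 0.103 without WT 0 h replicate 1. The others were the fits without WT 1 h replicate 1, WT 3 h replicate 1, WT 8 h replicate 1, Mettl3-KO 0 h replicate 2, Mettl3-KO 1 h replicate 2 or either Mettl3-KO 8 h library, and the log2 change was at least 1.14 in all 14. In the deep libraries alone it was 1.58 (SE 0.23, edgeR adjusted p = 3.4e-05).

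The other phosphofructokinase isozymes gave no call. Pfkl, the liver isozyme, lay between 49.0 and 185 CPM (median 73.5) in the deep Mettl3-KO libraries and at 55.2, 89.5, 85.3, 54.1 and 77.6 CPM in the deep WT libraries (log2 change 0.26, SE 0.37, edgeR adjusted p = 0.68). Pfkm, the muscle isozyme, lay between 17.3 and 29.4 CPM (median 27.0) in Mettl3-KO and at 23.9, 26.2, 30.8, 31.5 and 35.6 CPM in WT (log2 change 0.01, SE 0.28, edgeR adjusted p = 0.99). Of the counts of all 3 isozymes together, Pfkp held between 13.2% and 39.2% (median 25.6%) in the deep Mettl3-KO libraries and between 8.42% and 12.6% (median 9.28%) in the deep WT libraries. Pfkfb3, which makes fructose 2,6-bisphosphate, the activator of phosphofructokinase, lay between 16.2 and 29.7 CPM (median 24.5) in Mettl3-KO and at 9.49, 19.1, 17.1, 10.1 and 10.4 CPM in WT. The groups overlapped, with a log2 change of 1.03 (SE 0.30, edgeR adjusted p = 0.023). The call was lost without WT 0 h replicate 1, either WT 8 h library or either Mettl3-KO 8 h library (edgeR adjusted p up to 0.0676).

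Hexokinase traps glucose in the cell as glucose 6-phosphate. Hk1 lay between 21.5 and 41.1 CPM (median 30.5) in the deep Mettl3-KO libraries and at 32.4, 55.6, 41.9, 39.2 and 55.8 CPM in the deep WT libraries (log2 change -0.59, SE 0.26, edgeR adjusted p = 0.12). Hk2, the inducible isozyme, lay between 57.9 and 161 CPM (median 119) in Mettl3-KO and at 218, 137, 138, 180 and 93.4 CPM in WT (log2 change -0.39, SE 0.25, edgeR adjusted p = 0.30). The groups overlapped for both. The aldolases differed in sign: Aldoa, the main isozyme, lay between 156 and 658 CPM (median 346) in Mettl3-KO and at 489, 722, 659, 598 and 651 CPM in WT, with a log2 change of -0.70 (SE 0.26, edgeR adjusted p = 0.065), and Aldoc, at no more than 6.43 CPM in any deep library, had a log2 change of 1.05 (SE 0.40, edgeR adjusted p = 0.077). RefSeq names 2 near-identical copies of Aldoa. Tpi1, which interconverts the triose phosphates, lay between 35.3 and 166 CPM (median 68.1) in Mettl3-KO and at 31.9, 16.4, 19.1, 24.2 and 22.9 CPM in WT. These groups did not overlap. The estimate was 1.35 on the log2 scale (SE 0.51, edgeR adjusted p = 0.077) over 14 libraries and 1.80 (SE 0.29, edgeR adjusted p = 0.00016) over the deep ones.

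In lower glycolysis 0 of 5 tested members passed in either direction over 14 libraries, where 12.1% of all genes were higher and 9.99% lower. Pkm, pyruvate kinase, lay between 400.1 and 1504 CPM (median 722) in the deep Mettl3-KO libraries and at 658, 1404, 1066, 513 and 947 CPM in the deep WT libraries, with a log2 change of -0.07 (SE 0.38, edgeR adjusted p = 0.93). Eno1, enolase, lay between 25.3 and 53.5 CPM (median 40.0) in Mettl3-KO and at 9.98, 14.8, 18.7, 13.1 and 20.7 CPM in WT. Its log2 change was 1.79 (SE 0.67, edgeR adjusted p = 0.081) over 14 libraries and 1.41 (SE 0.22, edgeR adjusted p = 8.3e-05) over the deep ones; the shallow Mettl3-KO library stood apart at 730 CPM. Gapdh, which oxidises glyceraldehyde 3-phosphate, lay between 6.10 and 12.0 CPM (median 9.12) in Mettl3-KO and at 11.9, 62.4, 30.0, 8.97 and 17.2 CPM in WT (log2 change -1.41, SE 0.48, edgeR adjusted p = 0.051). The groups overlapped. Pgk1, which makes the first ATP of lower glycolysis, was counted at most 29 times in any library and was not tested. RefSeq names 3 near-identical copies of Gapdh and 3 of Pgk1, so both are uncertain here. It also names 2 of Pgam1, which was called higher over the deep libraries. Copies were searched by name only, so those named in another way would be missed, for Eno1 too.

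Entry of pyruvate into mitochondria is set by pyruvate dehydrogenase and the kinases that inhibit it. Pdk1, such a kinase, lay between 88.5 and 159 CPM (median 124) in the deep Mettl3-KO libraries and at 72.3, 80.0, 72.6, 96.1 and 105 CPM in the deep WT libraries. The groups overlapped, and the estimate was 0.64 on the log2 scale (SE 0.22, edgeR adjusted p = 0.055) over 14 libraries and 0.56 (SE 0.15, edgeR adjusted p = 0.0063) over the deep ones. Pdha1, the catalytic subunit that Pdk1 phosphorylates, lay between 197 and 321 CPM (median 279) in Mettl3-KO and at 363, 335, 332, 359 and 513 CPM in WT. The deep groups did not overlap. Its log2 change was -0.24 (SE 0.29, edgeR adjusted p = 0.61) over 14 libraries and -0.51 (SE 0.17, edgeR adjusted p = 0.024) over the deep ones, and the shallow Mettl3-KO library had 798 CPM.

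Of the 4 pentose phosphate genes 0 passed the test over 14 libraries, where 12.1% of all genes were higher and 9.99% lower. G6pdx, the X-linked glucose 6-phosphate dehydrogenase that opens the pathway, lay between 16.5 and 54.1 CPM (median 40.7) in the deep Mettl3-KO libraries and at 29.1, 33.4, 23.2, 32.0 and 26.7 CPM in the deep WT libraries (log2 change 0.31, SE 0.35, edgeR adjusted p = 0.59). Pgd, the next NADPH-yielding enzyme, lay between 110 and 275 CPM (median 220) in Mettl3-KO and at 152, 145, 128, 174 and 132 CPM in WT (log2 change 0.51, SE 0.22, edgeR adjusted p = 0.12). The enzymes of the non-oxidative branch had opposite signs, Taldo1 with 0.58 (SE 0.22, edgeR adjusted p = 0.071) and Tkt with -0.39 (SE 0.24, edgeR adjusted p = 0.27). Pgd and Taldo1 were called higher and Tkt lower in the deep libraries.

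In the TCA group 1 of 11 members was higher and 0 lower, beside 12.1% and 9.99% of all genes. Ogdh, the catalytic subunit of the oxoglutarate dehydrogenase complex, lay between 90.3 and 140 CPM (median 101) in the deep Mettl3-KO libraries and at 51.0, 71.0, 62.0, 77.6 and 82.0 CPM in the deep WT libraries. Although the groups did not overlap, the log2 change of 0.69 (SE 0.24, edgeR adjusted p = 0.0496) passed narrowly. The call was kept without WT 1 h replicate 1, WT 1 h replicate 2 or Mettl3-KO 3 h replicate 2 and lost without any one of the other 11 libraries (edgeR adjusted p up to 0.144, log2 change at least 0.62); over the deep libraries it was 0.74 (SE 0.14, edgeR adjusted p = 0.00055). Cs, citrate synthase, which opens the cycle, lay between 88.1 and 168 CPM (median 144) in Mettl3-KO and at 129, 114, 124, 128 and 76.7 CPM in WT (log2 change 0.30, SE 0.23, edgeR adjusted p = 0.41). Idh1, the cytosolic NADP-dependent isocitrate dehydrogenase, lay between 41.2 and 75.3 CPM (median 55.1) in Mettl3-KO and at 99.7, 117, 98.3, 68.6 and 40.5 CPM in WT (log2 change -0.55, SE 0.35, edgeR adjusted p = 0.30). Idh2, its mitochondrial counterpart, lay between 91.5 and 180 CPM (median 106) in Mettl3-KO and at 159, 133, 135, 140 and 218 CPM in WT (log2 change -0.43, SE 0.28, edgeR adjusted p = 0.29). Among the others, Idh3a, Sucla2, Sdha, Sdhb, Fh1, Mdh1 and Mdh2, log2 changes lay between -0.38 for Mdh1 and 0.27 for Idh3a with none called.

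The Mettl3-KO 8 h libraries stood apart for part of the set. For 14 of the 38 members both lay above all 5 deep Mettl3-KO libraries of 0, 1 and 3 h, for 3 both lay below, and for 21 they did not separate. Over all genes tested, 13.9% lay above and 13.5% below in this sense. The 14 were Slc2a1, Slc16a3, Hk2, Pfkl, Pfkfb3, Aldoa, Tpi1, Pgam1, Pkm, Ldha, G6pdx, Pgd, Idh1 and Ogdh, and the 3 were Slc2a3, Tkt and Pdha1. Aldoa was at 652 and 658 CPM at 8 h and at no more than 401 CPM in the earlier Mettl3-KO libraries, and Tpi1 at 155 and 166 CPM at 8 h and at no more than 73.3 CPM before. This pattern was noticed in the data and has no test of its own. The source label of these 2 libraries also differs from that of the other 12, though their cell line label does not, and what that reflects was not tested. With the 8 h and the shallow libraries left out, 10 members were higher and 5 lower in Mettl3-KO (5 libraries) than in WT (3 libraries), where 14.6% and 14.7% of all genes were. Ldhb (2.51), Pfkp (1.64), Slc16a3 (1.56), Slc16a1 (1.39), Ldha (0.79) and Ogdh (0.67) were among those higher. Pfkfb3 was not called there (0.54, edgeR adjusted p = 0.15). Slc2a1, Slc2a3, Aldoa, Gapdh and Idh1 were lower there, Slc2a1 by a log2 change of -1.07. A difference between genotypes in the change of total RNA per hour was called for 0 members and 0 of all genes over 14 libraries by edgeR, with 728 genes at an unadjusted p under 0.05. DESeq2 called 2 members higher, among 85 genes higher and 116 lower, and the deep libraries gave Slc2a1 only, at 0.18 log2 per hour (SE 0.04, edgeR adjusted p = 0.046), where 0.24% of all genes were higher.

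Labelled RNA was read from the authors' conversion counts, the counts that carry the T-to-C change left by S4U, per unit of total RNA of the library. The 0 h difference was read from straight lines fitted over the hours of all 14 libraries, not from the 0 h libraries alone. By these lines, at 0 h, after 12 h of labelling, Ldhb was higher in Mettl3-KO cells, and Aldoa, Gapdh and Idh1 were lower. These were 1 and 3 of 37 members, where 1.35% of all 12678 genes were higher and 6.27% lower. The log2 change of Ldhb was 2.00 (SE 0.53, edgeR adjusted p = 0.0071), with 1725 and 1695 conversion counts in the Mettl3-KO 0 h libraries and 521 in the WT 0 h library. Aldoa changed by -1.64 (SE 0.47, edgeR adjusted p = 0.015), with 570 and 1888 conversion counts in Mettl3-KO and 3177 in WT at 0 h, and Idh1 by -1.60 (SE 0.49, edgeR adjusted p = 0.026), with 393 and 383 in Mettl3-KO and 1025 in WT. The fitted value of Gapdh was -2.89 (SE 0.73, edgeR adjusted p = 0.0044), with 14 and 19 conversion counts in Mettl3-KO and 36 in WT at 0 h. It was -1.93 without WT 1 h replicate 1, the deep library with the most total Gapdh (62.4 CPM). WT had 1 library at 0 h, and every one of these calls was lost without WT 1 h replicate 1 (edgeR adjusted p between 0.118 for Ldhb and 0.294 for Gapdh). Ldhb was also lost without WT 0 h replicate 1 (edgeR adjusted p = 0.060), Aldoa without Mettl3-KO 0 h replicate 1 (0.10) or WT 3 h replicate 1 (0.059), and Idh1 without either Mettl3-KO 0 h library, Mettl3-KO 1 h replicate 1 or WT 3 h replicate 1 (edgeR adjusted p between 0.053 and 0.11). Without WT 1 h replicate 2, 7 members were lower, where 7.75% of all genes were, and without WT 8 h replicate 2, 2 members were higher, where 1.66% were. Over the deep libraries Pfkp was also higher (1.80), where 1.57% of all genes were, and Slc2a1 (-1.61), Slc2a3 (-1.27), Hk2 (-1.24) and Pkm (-1.38) were also lower, where 8.55% of all genes were.

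The label per unit of a gene's own RNA, the labelled share, was tested next, since it separates label from level. At 0 h, again by the fitted lines, it was lower in Mettl3-KO for 36 of 37 members by the sign of the estimate. The median log2 difference was -0.44, beside -0.41 over all genes. By edgeR 0 members and 1 of all genes (0.00789%, lower) passed, with 782 genes at an unadjusted p under 0.05, and by DESeq2 24 genes passed, all lower. The members thus followed the shift of the whole libraries, in which 26.1% and 26.6% of counts carried conversions in the Mettl3-KO 0 h libraries and 39.4% in the WT 0 h library. For Ldhb the share was 25.3% and 24.4% in Mettl3-KO and 30.8% in WT, so its labelled and total RNA differed by about the same factor. Tpi1 gave the lowest estimate, -0.96 (SE 0.43, edgeR adjusted p = 0.72), with shares of 25.0% and 17.7% in Mettl3-KO and 43.1% in WT.

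During the chase most of these genes had a shallower slope of labelled RNA than the median gene, in both genotypes. A falling slope was called for 26 of 37 members in Mettl3-KO, where 88.2% of all genes fell, and for 35 of 37 in WT, where 91.4% did. A rise was called for 0 members in either genotype, beside 0.0316% of all genes in Mettl3-KO and 0.0394% in WT. Over the deep libraries 29 members fell in Mettl3-KO and 35 in WT, beside 89.1% of all genes in Mettl3-KO and 91.3% in WT. The median slope was -0.28 log2 per hour over the members in Mettl3-KO and -0.42 in WT, against -0.47 and -0.56 over all genes in Mettl3-KO and WT. The slope was shallower than the all-gene median for 33 of 37 members in Mettl3-KO and 30 of 37 in WT. As half-lives, with no correction for cell growth, the all-gene median slopes equal 2.12 h in Mettl3-KO and 1.80 h in WT. Every library had received S4U, so the level of conversions without label is not known and was not subtracted. Its part in the low shares at 8 h, and so in the slopes and half-lives, was not tested. No fall was called in Mettl3-KO for Gpi1, Pfkl, Aldoa, Aldoc, Tpi1, Gapdh, Pkm, Ldhb, Slc16a3, G6pdx and Taldo1, most of them enzymes of glycolysis, and in WT for Aldoc and Fh1. Aldoa, Ldhb and Taldo1 were the 3 called in Mettl3-KO only over the deep libraries. The missing calls in Mettl3-KO do not mean that label was kept, since these slopes are per unit of library total. In the deep Mettl3-KO libraries the mean labelled share of each of these genes was lower at 8 h than at 0 h. It was 22.4% and 6.5% for Pkm, 17.2% and 5.3% for Pfkl, and 21.3% and 3.9% for Tpi1. Total RNA of Pfkl, Aldoa, Tpi1, Pkm, Slc16a3 and G6pdx was highest at 8 h there.

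**Figure D3:**
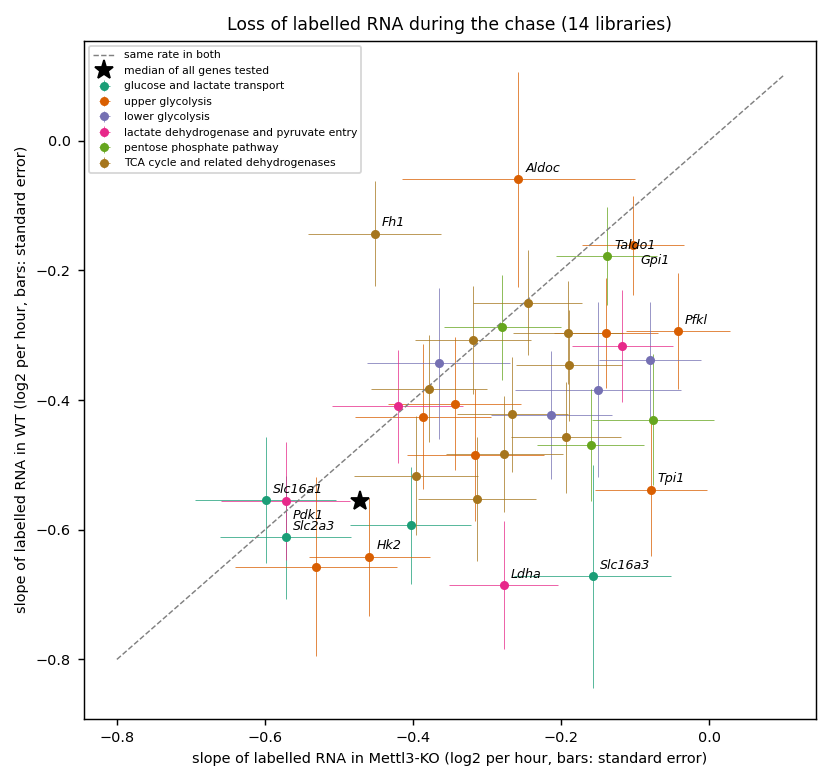
The slope of labelled RNA over the chase in Mettl3-KO (x axis) against WT (y axis), in log2 per hour with standard errors, for the 37 members tested, coloured by role. The star is the median of all genes tested (-0.47 in Mettl3-KO, -0.56 in WT); most members lie up and to the right of it, and points below the dashed line had a shallower slope in Mettl3-KO.

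Half-lives here assume 1 straight line over 0 to 8 h, which was not tested. Of all counts in the Mettl3-KO libraries, 26.1% and 26.6% carried conversions at 0 h and 25.2% and 26.7% at 1 h. The deep WT libraries had 39.4% at 0 h and 30.8% at 1 h, from 1 library each. A single line cannot show this difference in the first hour. Among the members with a called fall in Mettl3-KO, Slc16a1, Slc2a3 and Pdk1 had the shortest half-lives there. Slc16a1 had 1.67 h in Mettl3-KO and 1.80 h in WT, Pdk1 had 1.75 h in Mettl3-KO and 1.80 h in WT, and Slc2a3 had 1.75 h in Mettl3-KO and 1.64 h in WT. Their slopes differed between genotypes by no more than 0.04 log2 per hour in size (SE 0.11 to 0.12, edgeR adjusted p between 0.90 and 0.96). Pfkfb3 had 1.88 h in Mettl3-KO and 1.52 h in WT, and Hk2 had 2.18 h in Mettl3-KO and 1.56 h in WT. At the long end were Pgd (6.25 h in Mettl3-KO, 2.13 h in WT), Idh2 (5.28 h in Mettl3-KO, 2.89 h in WT), Mdh1 (5.25 h in Mettl3-KO, 3.38 h in WT) and Mdh2 (5.18 h in Mettl3-KO, 2.19 h in WT). Cs had 2.64 h in Mettl3-KO and 2.61 h in WT.

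Labelled RNA of Tpi1 and Ldha, per unit of library total, fell more slowly in Mettl3-KO. These were 2 of 37 members against 0 where it fell faster, beside 2.4% of all genes slower and 0.205% faster. The estimate was above 0 for 30 of 37 members, beside 68.8% of all genes, and its median was 0.16 log2 per hour over the members and 0.10 over all genes. In the labelled share the order was reversed, with a median of 0.054 over the members and 0.087 over all genes. There 31 of 37 members were above 0, beside 70.4% of all genes. Ldha fell by 0.28 log2 per hour in Mettl3-KO and by 0.69 in WT, a half-life of 3.60 h in Mettl3-KO against 1.46 h in WT. The difference was 0.41 log2 per hour (SE 0.11, edgeR adjusted p = 0.027). Its labelled share in the deep Mettl3-KO libraries was 23.6% and 29.6% at 0 h, 21.1% and 25.2% at 1 h, 16.9% at 3 h, and 3.11% and 3.28% at 8 h. In WT it was 37.5% at 0 h, 23.3% at 1 h, 19.4% at 3 h, and 1.36% and 0.549% at 8 h, the last from 24 and 7 conversion counts. Mettl3-KO thus began lower and ended higher, while its total Ldha was highest at 8 h. In the share, which takes the changing total into account, the difference was 0.25 log2 per hour (SE 0.08, edgeR adjusted p = 0.076) over 14 libraries and 0.27 (SE 0.08, edgeR adjusted p = 0.027) over the deep ones.

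Tpi1 fell by 0.54 log2 per hour in WT, with no fall called in Mettl3-KO (-0.08, SE 0.08), a difference of 0.46 log2 per hour (SE 0.12, edgeR adjusted p = 0.023). Its share fell in both genotypes, to 3.65% and 4.22% in the Mettl3-KO 8 h libraries and 3.67% and 0.690% in the WT 8 h libraries. The difference in the share was 0.19 log2 per hour (SE 0.10, edgeR adjusted p = 0.30), and total Tpi1 in Mettl3-KO was highest at 8 h. Both calls depended on single libraries. The Tpi1 difference missed the threshold without WT 0 h replicate 1, WT 8 h replicate 2 or either Mettl3-KO 8 h library (edgeR adjusted p up to 0.108, at least 0.39 log2 per hour). The Ldha difference missed it without Mettl3-KO 0 h replicate 1, Mettl3-KO 1 h replicate 1, either WT 8 h library or either Mettl3-KO 8 h library (edgeR adjusted p up to 0.151, at least 0.35 log2 per hour). Over the deep libraries Pkm (0.30), Pgd (0.30) and Mdh2 (0.28) were also slower in Mettl3-KO, where 5.05% of all genes were. Slc16a3 had the largest estimate of all members, 0.51 (SE 0.20, edgeR adjusted p = 0.13).

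**Figure D4:**
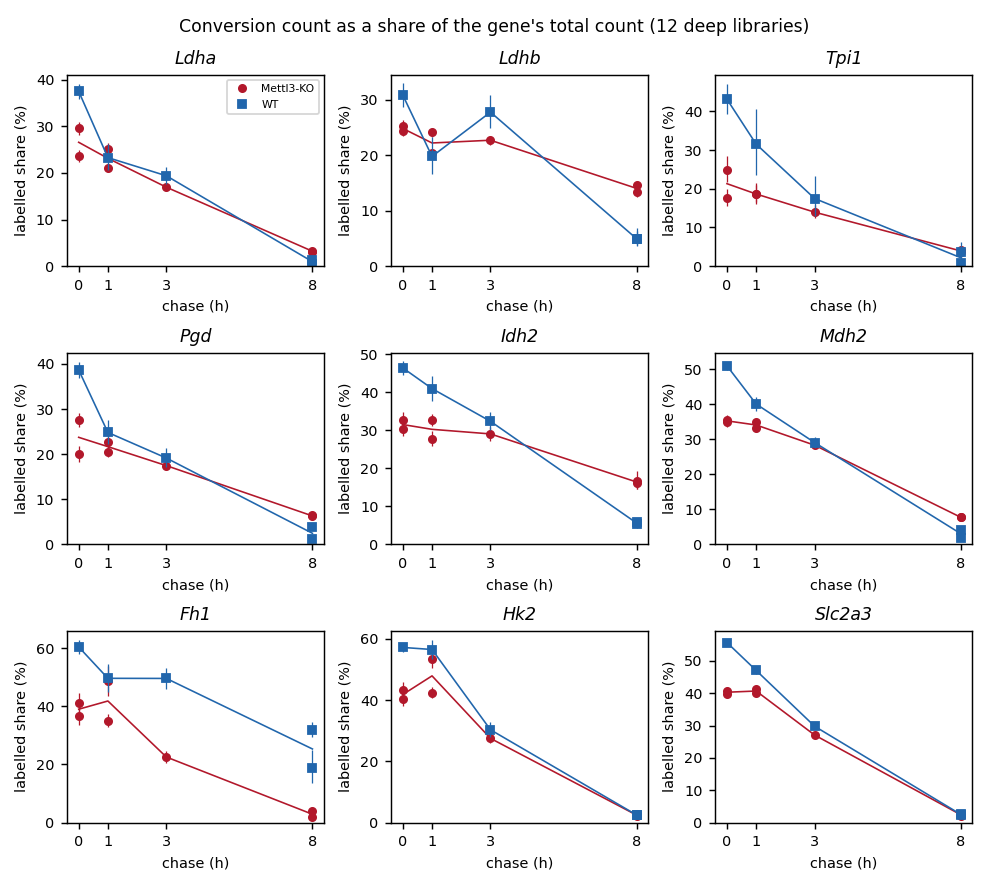
Conversion counts as a percent of the gene's total counts (y axis) against hours of chase (x axis) for 9 members in the 12 deep libraries, Mettl3-KO as circles and WT as squares, with lines through the means and 95% Wilson intervals as bars. Mettl3-KO starts below WT for each gene shown, ends above it for Ldha, Ldhb, Pgd, Idh2 and Mdh2, and ends below it for Fh1.

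By the labelled share, loss was slower in Mettl3-KO for Idh2 and faster for Fh1, where 3.23% of all genes were slower and 0.26% faster. For Idh2 the shares in Mettl3-KO were 30.4% and 32.7% at 0 h, 27.8% and 32.7% at 1 h, 29.1% at 3 h, and 16.8% and 16.0% at 8 h. In WT they were 46.4% at 0 h, 41.0% at 1 h, 32.4% at 3 h, and 5.79% and 5.43% at 8 h. The WT libraries began above and ended well below those of Mettl3-KO, with a difference of 0.27 log2 per hour (SE 0.08, edgeR adjusted p = 0.039). This call was lost in the fits without either library of Mettl3-KO at 0 h, 1 h or 8 h, or without WT 0 h replicate 1, WT 1 h replicate 1 or either WT 8 h library (edgeR adjusted p up to 0.129, at least 0.26 log2 per hour). Without WT 1 h replicate 2, WT 3 h replicate 1 or Mettl3-KO 3 h replicate 2, 4 members were slower, where between 3.64% and 5.28% of all genes were, and without Mettl3-KO 3 h replicate 1, 2 were, where 3.57% were.

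Fh1, fumarate hydratase of the TCA cycle, ran the other way. Its share in Mettl3-KO was 41.3% and 36.7% at 0 h, 35% and 48.6% at 1 h, 22.6% at 3 h, and 3.82% and 1.89% at 8 h. In WT it was 60.4% at 0 h, 49.6% at 1 h, 49.6% at 3 h, and 32.0% and 18.7% at 8 h, the last pair from 448 of 1402 and 34 of 182 counts. WT thus kept a large part of the label at 8 h, at a time when 4.52% and 3.72% of all counts of these libraries carried conversions. The difference was -0.37 log2 per hour (SE 0.09, edgeR adjusted p = 0.011). It missed the threshold without WT 8 h replicate 1 (-0.31, edgeR adjusted p = 0.083) or Mettl3-KO 8 h replicate 2 (-0.30, edgeR adjusted p = 0.11). Total Fh1 lay between 19.1 and 80.0 CPM in the deep Mettl3-KO libraries and at 81.9, 59.9, 67.4, 96.0 and 28.7 CPM in the deep WT libraries. Over the deep libraries Ldha, Ldhb, Pgd and Mdh2 joined Idh2 as slower in the share, where 5.38% of all genes were slower. The Ldhb share was 13.3% and 14.7% in the Mettl3-KO 8 h libraries and 4.92% and 4.96% in the WT 8 h libraries, a difference of 0.23 log2 per hour (SE 0.06, edgeR adjusted p = 0.022).

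The authors' deposited table of half-lives, whose header gives no unit, lists 10 of the 39 genes: Slc2a1, Slc2a3, Slc16a1, Hk2, Pfkfb3, Ldha, Pdk1, Tkt, Cs and Sdhb. In the authors' deposited table the Mettl3-KO value is above the WT value for all 10, and for 83.4% of its 6985 genes, with 9.82 in Mettl3-KO and 1.45 in WT for Ldha, 7.97 in Mettl3-KO and 2.035 in WT for Sdhb, and 2.24 in Mettl3-KO and 1.39 in WT for Slc16a1. The slopes above gave 3.60 h in Mettl3-KO and 1.46 h in WT for Ldha, and 1.67 h in Mettl3-KO and 1.80 h in WT for Slc16a1. Of the 10, the half-life from these slopes was longer in Mettl3-KO for 8 and shorter for 2, Slc16a1 and Pdk1, with no test of the half-lives themselves.

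Of 70 other genes of these pathways, 53 had enough counts, with a median log2 change of 0.18 in total RNA over 14 libraries. In the deep libraries 12 were higher and 7 lower, where 21.9% and 19.3% of all genes were. Over 14 libraries 6 were higher and 4 lower, beside the 12.1% and 9.99% of all genes. By smallest p they were Idh3g (-1.30), a regulatory subunit of NAD-dependent isocitrate dehydrogenase, Gpd2 (-0.87), the mitochondrial glycerol phosphate dehydrogenase, Slc25a1 (1.25), the mitochondrial citrate carrier, Bpgm (1.24), which makes 2,3-bisphosphoglycerate, Eno3 (-0.98), muscle enolase, Pdk3 (0.96), another pyruvate dehydrogenase kinase, Mpc1 (-1.35), a subunit of the mitochondrial pyruvate carrier, and Tigar (0.70), a fructose 2,6-bisphosphatase. Pdk3 and Mpc1 had edgeR adjusted p = 0.023 and edgeR adjusted p = 0.027. The hypoxia and HIF pathway, the textbook regulator of glycolytic genes, had 22 tested genes. In the deep libraries 5 of them were higher and 2 lower, where 21.9% and 19.3% of all genes were. Over 14 libraries 2 were higher and 1 lower, beside 12.1% and 9.99% of all genes. Arnt, the partner of the HIF alpha subunits, rose by 2.04 (SE 0.29, edgeR adjusted p = 0.000325), and Bnip3, a mitophagy receptor, by 4.39 (SE 0.63, edgeR adjusted p = 0.00037). Epas1 (HIF2 alpha) changed by -2.82 (SE 0.26, edgeR adjusted p = 1.2e-05), and Hif1a, named after its value was seen, by -0.37 (SE 0.16, edgeR adjusted p = 0.13). Their median was 0.17, with 14 of 22 above 0.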

How the data were processed

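Total and conversion counts came from QuantSeq 3′-end libraries of polyA RNA, treated with 10 mM iodoacetamide so that S4U reads as C. Per the submitters' processing notes, reads were trimmed with Trim Galore 0.4.0 and counted with featureCounts of Subread 1.5.0 on mm10, and edgeR 3.32.1 was used; the aligner, the conversion caller and the unit of a conversion count (reads or bases) are not given here. The authors deposited whole-number counts per gene, not normalized, and a table of half-lives with no stated unit. An entry with no gene name (0.00707% to 0.0312% of counts) was left out. No 2 libraries held identical values.

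Computed here with R 4.3.3: CPM with TMM factors, and edgeR 4.0.16 quasi-likelihood fits over all genes with Benjamini-Hochberg adjustment at 0.05. Total RNA was fitted with chase time and genotype, for genes with at least 10 counts in 6 libraries (14641). Conversion counts were fitted with genotype, hours and their interaction, offset by library totals, for genes with at least 10 conversion counts in 3 libraries (12678); the share fit used the gene's own total plus 0.5 as offset. Standard errors were derived from each log2 estimate and its F statistic. The fits were also run on data simulated from fitted models of the same kind. The changes planted there were larger than most reported here, so recovery of smaller ones was not tested. Wilson 95% intervals cover counting error only, as reads carry no molecular identifiers. DESeq2 1.42.0, other scalings and filters, a replicate block and leaving out libraries were tried; leaving out the 8 h and shallow libraries together was chosen after seeing the data. Described in full are members called in any comparison over 14 libraries and a list of gate-keeping enzymes and carriers, with other members by range or, up to 4 a pathway step, by value; other lists by up to 8 called genes with the smallest p. The 8 h pattern was noticed after its values were seen. The members and lists were chosen with earlier results of these data known.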

Additional observations from a re-analysis of the deposited data

Results flagged for a closer look

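In total RNA, 13 of 76 groups of libraries (1 member in 1 genotype) held a library far from the others, where chance flags about 1 in 20. All 13 were in the shallow libraries, whose precision is 2.94 CPM a count in Mettl3-KO 3 h replicate 2 and 21.4 CPM a count in WT 1 h replicate 2. In Mettl3-KO 3 h replicate 2 Eno1 stood at 730 CPM, Pdha1 at 798 CPM, Pfkm and Pfkfb3 each at 47.1 CPM and Sucla2 at 23.6 CPM. In WT 1 h replicate 2 Ldhb stood at 278 CPM, Gpi1 at 214 CPM, Tpi1 at 128 CPM, Pfkp at 85.5 CPM, Eno1 at 42.7 CPM and Slc16a3 at 21.4 CPM, while Pfkm and G6pdx stood at 0. Ldhb at 278 CPM in that WT library rests on 13 counts.

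The genotypes differed in the loss of labelled RNA per hour, Mettl3-KO minus WT, for Tpi1 (0.459 log2 per hour) and Ldha (0.408 log2 per hour). Neither of them was called in the labelled share over 14 libraries. In the loss of the labelled share they differed for Fh1 (-0.37 log2 per hour) and Idh2 (0.274 log2 per hour). Each was called by the edgeR interaction term.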

How the results depend on the processing

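Alternative values were compared only for members and comparisons called over 14 or the 12 deep libraries. Among these values, 1872 kept their direction and side of the threshold, 121 newly passed it, 114 no longer passed and 47 changed sign. Without the 2 shallow libraries 14 members were higher and 8 lower in total RNA (7 and 0 over 14 libraries), 2 and 7 in labelled RNA at 0 h (1 and 3), 5 slower in label loss (2), 5 slower in share loss (1) and 1 higher in total change per hour (0). Of all genes, 21.9% and 19.3%, 1.57% and 8.55%, 5.05%, 5.38% and 0.24% were called there, in the same order. DESeq2 gave 13 and 4, 2 and 5, and 5 slower in share loss and 2 in total change per hour. The shares of all genes were 16.8% and 16.1%, 1.47% and 7.5%, 6.46% and 0.581%. Total RNA had 3 higher with no filter (4.6% of all genes) and 1 lower with a stricter filter (11.9%) or RLE factors (10.3%). It had 5 lower without the 8 h and shallow libraries (14.7%). Share loss had 2 slower with no filter (2.45%) or a stricter one (4.21%). Leaving out 1 library gave 3 to 14 higher and 0 to 5 lower in total RNA, 0 to 2 and 0 to 7 in labelled RNA, 20 to 28 falling in Mettl3-KO, 33 to 35 in WT, 0 to 3 slower in label loss, and 0 to 4 slower and 0 to 1 faster in share loss. Over all genes these fits gave 8.37% to 19.2% higher and 6.55% to 17% lower in total RNA, and 0.611% to 1.66% and 2.48% to 7.81% in labelled RNA. Falling slopes were 76.3% to 89.3% in Mettl3-KO and 83.6% to 92.1% in WT. Slower label loss was 0.473% to 4.08%, slower share loss 1.03% to 5.28% and faster share loss 0.0474% to 0.318%.

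Of 15 correlations of replicate differences between groups, 2 exceeded 0.1 (-0.0803 to 0.299). Most of the 15 involved a shallow library, whose noise could hide a shared deviation. The highest without one was 0.241, between Mettl3-KO 1 h and WT 8 h. Whether samples with the same number share more than the number cannot be told from this. With the replicate block 0 members were slower in share loss (Idh2 0.26), where 2.3% of all genes were. Idh1 at 0 h gave -1.404 there (edgeR adjusted p = 0.0657 for Idh2 and edgeR adjusted p = 0.114 for Idh1).

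TMM factors of the conversion counts, which set labelled totals equal and so by construction remove loss common to the library, gave 3 higher and 1 lower at 0 h and 1 faster label loss. The shares of all genes were 3.04%, 3.87% and 0.947%. Falling slopes numbered 0 in both genotypes, where 9.21% of all genes fell in Mettl3-KO and 2.51% in WT. Rising ones numbered 20 in Mettl3-KO and 9 in WT, where 12.1% and 4.74% of all genes rose. Slopes turned positive in log2 per hour in Mettl3-KO for Slc2a1 0.021, Hk1 0.11, Pfkm 0.079, Pfkp 0.039, Aldoa 0.28, Pgam1 0.22, Eno1 0.062, Ldha 0.15, Ldhb 0.31, Pgd 0.26, Tkt 0.15, Taldo1 0.29, Cs 0.046, Idh1 0.11, Idh2 0.24, Idh3a 0.032, Ogdh 0.16, Sucla2 0.11, Sdha 0.18, Sdhb 0.16, Mdh1 0.24, Mdh2 0.24, Pdha1 0.0075. In WT they did for Hk1 0.028, Gpi1 0.35, Pfkl 0.22, Pfkm 0.11, Pfkp 0.085, Aldoa 0.22, Gapdh 0.14, Pgam1 0.0896, Eno1 0.16, Pkm 0.18, Ldhb 0.20, G6pdx 0.081, Pgd 0.044, Tkt 0.23, Taldo1 0.33, Cs 0.13, Idh2 0.17, Ogdh 0.092, Sucla2 0.21, Sdha 0.26, Sdhb 0.032, Mdh1 0.22, Mdh2 0.051, Pdha1 0.10. Directions of loss are thus relative to total RNA. WT had 1 library at 0 h and at 3 h, and 1 count in WT 1 h replicate 2 equals 21.4 CPM, which limits what its values can show.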
